A study of Mus musculus with 9 samples.

Results

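The 5p arms of 3 hairpins of the miR-25/92 family, miR-25-5p, miR-92a-1-5p and miR-92b-5p, were followed from dividing cortical progenitors to young neurons of the mouse embryo. They were chosen by mature name (mmu-miR-25-5p, mmu-miR-92a-1-5p and mmu-miR-92b-5p) and are 3 of the 1052 mature miRNAs that the table held after repeated names were reduced to 1 row each. Rows were further selected on total read count, the largest per name being kept, but each of these names had a single row, so the totals of 1088, 109 and 2621 reads decided nothing. The set itself was picked with results of these libraries in view. Small RNA was sequenced from the lateral cortex of C57BL/6 embryos at embryonic day 14.5, after cells had been sorted by the fluorescence of reporters that the sample titles call R and G. Proliferating progenitors carried neither signal, differentiating progenitors carried R but not G, and newborn neurons carried G, with 3 libraries for each population. The labels name no treatment and do not say whether the 3 libraries of a population came from separate embryos, so the p-values below measure only the spread between these libraries. Library totals of mature miRNA reads ran from 821155 to 3856484.

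A miRNA hairpin is cut into a short duplex whose strands are called the 5p and the 3p arm. One strand is usually kept by an Argonaute protein and guides it to messenger RNAs through the seed, bases 2 to 8 of the strand, and the other is mostly degraded. In the miR-25/92 family the kept strand is generally the 3p arm of the hairpin, and miR-32 carries the family seed on its 5p arm. The family is encoded in several places: miR-25 with miR-106b and miR-93 inside the gene of the replication licensing protein Mcm7, miR-92a-1 at the end of the miR-17-92 cluster, a growth-promoting cluster expressed in dividing progenitors, and miR-92b on its own, known in cortex as a miRNA of neural progenitors.

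The sequences are shown because they separate the arms measured here from the arms that define the family. They are RefSeq sequences on GRCm38.p6, found for all 3 members, written 5′ to 3′ with the seed in capitals.
miR-25-5p: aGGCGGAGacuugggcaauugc
miR-92a-1-5p: aGGUUGGGauuugucgcaaugcu
miR-92b-5p: aGGGACGGgacguggugcaguguu
miR-25-3p: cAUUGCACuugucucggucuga
miR-92a-3p: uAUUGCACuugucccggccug
miR-92b-3p: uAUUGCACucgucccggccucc
miR-32-5p: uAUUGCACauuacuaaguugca
The 3 measured 5p arms have different seeds, and none of the 892 miRNAs of the table with a RefSeq sequence shared any of them. The 3 opposite 3p arms share the seed AUUGCAC with each other and with miR-32-5p. Of the arms with that seed, only miR-32-5p was in the table as used, and the 3p arms of the members' hairpins were not analysed here. All 3 members begin with AGG, as did 10 of 163 tested miRNAs with a sequence (6.13%). Their GC content was 59.1% for miR-25-5p, 47.8% for miR-92a-1-5p and 62.5% for miR-92b-5p, against a median of 45.5% over the 163.

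The hairpins lie on 3 chromosomes, and each is shown whole with the measured 5p arm in capitals.
Mir25: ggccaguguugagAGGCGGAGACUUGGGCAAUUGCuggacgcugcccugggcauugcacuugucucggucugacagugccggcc
Mir92-1: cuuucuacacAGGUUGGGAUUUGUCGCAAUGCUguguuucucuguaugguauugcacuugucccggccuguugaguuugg
Mir92b: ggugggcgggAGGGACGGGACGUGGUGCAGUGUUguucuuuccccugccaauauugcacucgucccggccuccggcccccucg
Mir25, at chr5:138165321-138165404 on the minus strand of GRCm38, lies within Mcm7 on the same strand, outside every exon of its protein-coding transcripts and inside an exon of a retained-intron transcript in GENCODE M21. Mir92-1, at chr14:115044427-115044506 on the plus strand, lies in an exon of the non-coding host gene Mir17hg. Mir92b, at chr3:89227116-89227198 on the minus strand, overlapped no other annotated gene and lay 28 bases from Mtx1, a mitochondrial import gene on the same strand, and 279 bases from Thbs3 on the other strand. In the structure predicted by RNAfold, 15 of 22 bases of miR-25-5p, 18 of 23 of miR-92a-1-5p and 19 of 24 of miR-92b-5p paired with the opposite arm.

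All 3 5p arms had lower levels in newborn neurons than in either progenitor population. Between proliferating progenitors and neurons the fall was 3.63-fold for miR-25-5p and 4.32-fold for miR-92b-5p. The 13.2-fold change of miR-92a-1-5p is given as a value only. Its neuron libraries held 6, 3 and 1 reads, and it entered the test through its progenitor libraries. For miR-25-5p and miR-92b-5p the second step, from differentiating progenitors to neurons, was the larger on the log2 scale. For miR-92a-1-5p the order of the steps depended on the scale and on 1 library. Only miR-92b-5p was called at the first step, and that call was not stable. Levels are given as CPM, reads per 1000000 mature miRNA reads after TMM scaling of the libraries, and changes as log2 differences with their standard error (SE) from edgeR's quasi-likelihood fit. A change is called at a Benjamini-Hochberg adjusted p under 0.05 over the 188 miRNAs tested. In such bulk libraries a lower level in every cell and fewer cells with the miRNA cannot be told apart.

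miR-92b-5p, from the hairpin that stands alone, gave 489, 305 and 299 reads in its proliferating libraries, 328, 203 and 412 in the differentiating ones and 319, 157 and 109 in the neuron ones. Scaled, these were 371, 312 and 391 CPM, then 234, 179 and 293 CPM, then 82.1, 82.8 and 83.8 CPM. The 3 populations formed separate ranges, and the neuron libraries lay much closer together than those of either progenitor population. Pooled without TMM scaling, the neuron reads gave an exact 95% Poisson interval of 79.2 to 93.3 CPM, which covers counting error only. That is wider than the range of the 3 libraries, so their closeness is not read as an unusually uniform level. The means were 358 ± 41.3, 235 ± 57.3 and 82.9 ± 0.834 CPM (SD, n = 3 each). From differentiating progenitors to neurons the level of miR-92b-5p fell by 1.51 on the log2 scale, with an SE of 0.19 and an edgeR adjusted p of 1.71e-05. Over the whole lineage it fell by 2.11, with an SE of 0.20 and an edgeR adjusted p of 1.11e-07. Its first step was a fall of smaller size (log2 change -0.60, SE 0.19, edgeR adjusted p = 0.0345). Over 20 alternatives the edgeR or DESeq2 adjusted p ran from 0.00699 to 0.208, and the call was lost in 10 of them. Among these were the fits without proliferating replicate 1 (0.131), proliferating replicate 3 (0.122), differentiating replicate 1 (0.0813), differentiating replicate 2 (0.164) or neuron replicate 1 (0.0608).

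miR-25-5p, the 5p arm of the hairpin inside Mcm7, was read 156, 178 and 71 times in the proliferating libraries, 202, 116 and 112 times in the differentiating libraries and 137, 64 and 52 times in the neuron libraries. These corresponded to 118, 182 and 92.9 CPM, then 144, 102 and 79.7 CPM, then 35.3, 33.8 and 39.96 CPM. Both progenitor populations overlapped, and every neuron library lay below every progenitor library. The means were 131 ± 45.9, 109 ± 32.7 and 36.3 ± 3.23 CPM (SD, n = 3 each). The first step was not called (log2 change -0.27, SE 0.26, edgeR adjusted p = 0.5), and its sign turned without proliferating replicate 2, the highest library, where the log2 change was 0.03. Between differentiating progenitors and neurons miR-25-5p fell by 1.59 on the log2 scale, with an SE of 0.27 and an edgeR adjusted p of 0.000155. Its log2 change over the whole lineage was -1.86, with an SE of 0.27 and an edgeR adjusted p of 1.62e-05.

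miR-92a-1-5p, the 5p arm of the last hairpin of the miR-17-92 cluster, was the rarest of the members. Its reads numbered 35, 21 and 6 in the proliferating libraries, 24, 10 and 3 in the differentiating libraries and 6, 3 and 1 in the neuron libraries. It entered the test through its progenitor libraries, since the filter asks for reads in a number of libraries equal to 1 population. In CPM its levels were 26.5, 21.5 and 7.85, then 17.1, 8.81 and 2.14, then 1.54, 1.58 and 0.768. The progenitor populations overlapped and varied widely, and the neuron libraries all lay below them, although the highest neuron library (1.58 CPM) was close to the lowest differentiating library (2.14 CPM). The means were 18.6 ± 9.66, 9.36 ± 7.52 and 1.30 ± 0.459 CPM (SD, n = 3 each). Pooled over libraries and without TMM scaling, the 62, 37 and 10 reads gave 19.2, 9.26 and 1.47 CPM. Their exact 95% Poisson intervals were 14.7 to 24.6, 6.52 to 12.8 and 0.705 to 2.70 CPM, which cover counting error only.

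The fitted changes of miR-92a-1-5p were correspondingly wide. The first step was not called (log2 change -1.05, SE 0.50, edgeR adjusted p = 0.183), but was without differentiating replicate 1, the highest of its population (log2 change -1.89, edgeR adjusted p = 0.0226). The second step had a log2 change of -2.68 (SE 0.67, edgeR adjusted p = 0.00341), and of -1.80 without that same library (edgeR adjusted p = 0.0519). The change over the whole lineage was -3.73 (log2, SE 0.61, edgeR adjusted p = 6.23e-05). Both changes against neurons are given as values only. miR-92a-1-5p entered the test through the libraries in which it is high, which favours finding a difference. In fits of only the 2 populations compared it did not pass the filter on low counts in either comparison with neurons. The difference of its mean levels was larger at the first step (18.6 to 9.36 CPM) than at the second (9.36 to 1.30 CPM), whereas the log2 change was larger at the second, except without differentiating replicate 1, where the steps were -1.89 and -1.80.

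**Figure D1:**
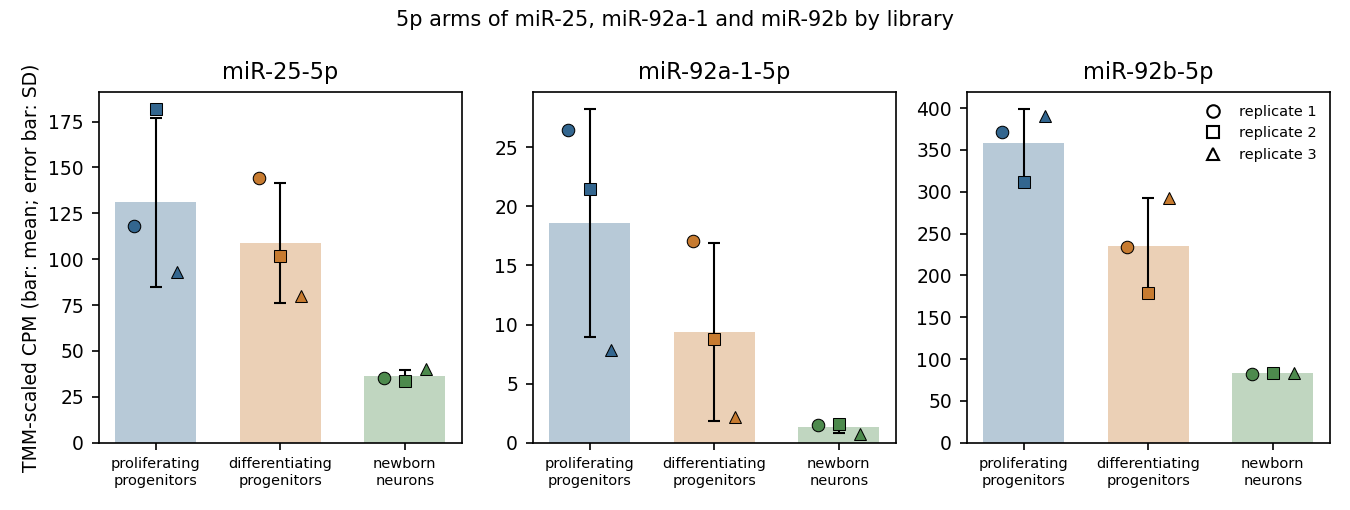
TMM-scaled CPM of miR-25-5p, miR-92a-1-5p and miR-92b-5p (vertical axes, each starting at 0) in the 3 populations; symbols are the libraries by replicate number, bars the mean and error bars the SD of 3 libraries. In each panel the 3 neuron libraries lie below all 6 progenitor libraries, while proliferating and differentiating progenitors overlap for miR-25-5p and miR-92a-1-5p.

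The changes were set beside those of all miRNAs, with the reservation that the members were chosen when these results were known, so that their counts support nothing by themselves, and that miR-92a-1-5p passed the filter through its progenitor libraries. At the first step 16.0% of the 188 miRNAs were called in either direction, 7.98% lower and 7.98% higher in differentiating progenitors, and 1 of the 3 members was called lower. At the second step 46.3% were called, 22.3% lower and 23.9% higher in neurons, and all 3 members were called lower. Over the whole lineage 56.4% were called, 26.6% lower and 29.8% higher, and all 3 members were again called lower. At an unadjusted p under 0.05 the shares were 26.6%, 52.1% and 60.6%. The share of falls among all calls depended on the scaling. At the first step it was 15 of 30 with TMM, 35.3% with upper-quartile factors and 58.3% when libraries were scaled to their total after removal of miR-9-5p, which had the most reads. At the second it was 48.3% with TMM, 56.4% with upper-quartile factors and 34.7% with that total. Libraries did not overlap, in the downward direction, for 18.6%, 22.3% and 31.9% of the 188 in the 3 comparisons, and for 1, 3 and 3 of the members. The median log2 change of all 188 was 0.08 at the first step, -0.06 at the second and -0.05 over the whole lineage, and that of the members was -0.60, -1.59 and -2.11. Ranked from the strongest fall over the whole lineage, miR-92a-1-5p was number 7, miR-92b-5p number 14 and miR-25-5p number 17 of 188.

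**Figure D2:**
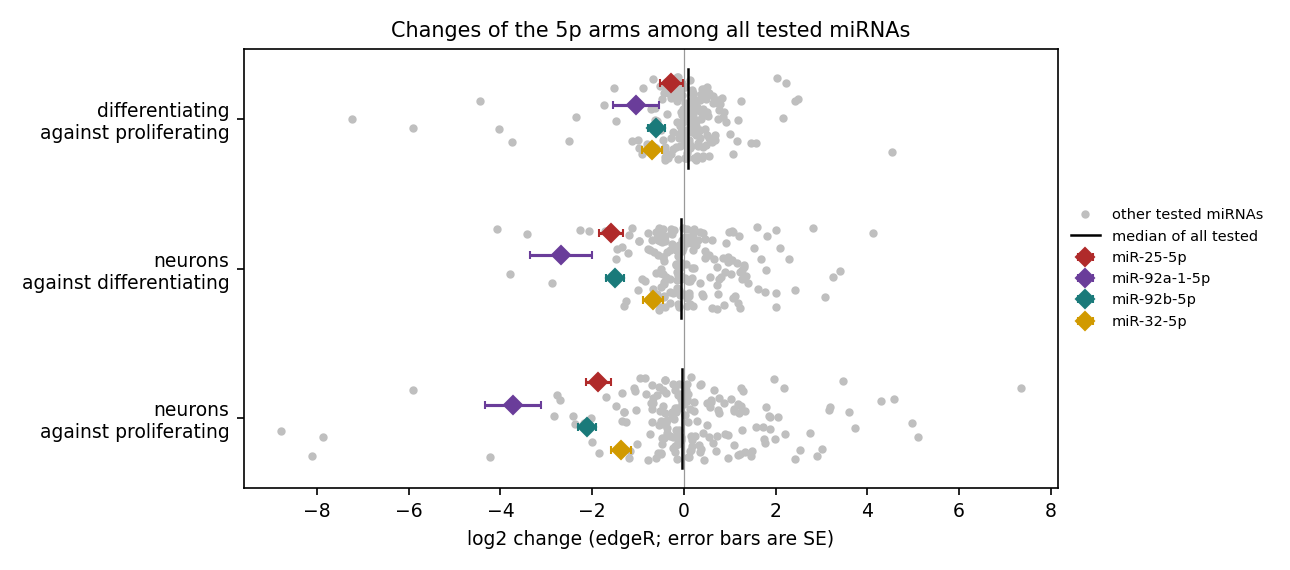
Log2 changes (horizontal axis) in the 3 comparisons for the tested miRNAs (grey points, spread vertically for legibility), with the median of all 188 as a black line and miR-25-5p, miR-92a-1-5p, miR-92b-5p and miR-32-5p as diamonds with SE bars. In both comparisons with neurons the 3 5p arms lie left of the median, miR-92a-1-5p farthest (-2.68 and -3.73) with the widest bars.

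The 3 loci were then compared within each library, through the log2 ratio of their reads after 0.5 was added to each count, so that the scaling of the library drops out. There were 15 such tests with those of the clusters below, and 3 libraries against 3 cannot give an exact permutation p below 0.1, which is 0.375 after Benjamini-Hochberg adjustment over the 15. Ratios of reads are not ratios of molecules, since sequences are ligated with different efficiency, and only their change between populations is read here.

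The ratio of miR-25-5p to miR-92b-5p varied more between libraries of a progenitor population than between population means. For each miR-92b-5p read there were 0.319, 0.584 and 0.237 reads of miR-25-5p in the proliferating libraries, 0.616, 0.571 and 0.272 in the differentiating libraries and 0.429, 0.408 and 0.477 in the neuron libraries. The neuron libraries lay within the range of both progenitor populations. The log2 ratio differed by 0.37 between differentiating and proliferating progenitors (two-sided exact permutation test, p = 0.6). It differed by -0.06 between neurons and differentiating progenitors (exact p = 1) and by 0.31 between neurons and proliferating progenitors (exact p = 0.5). With 1 library left out these differences ran from 0.08 to 0.74, from -0.44 to 0.15 and from 0.02 to 0.67. Differences of this size between both loci were not resolved, and these p-values do not show that the ratio was the same.

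The ratios with miR-92a-1-5p rest on few reads, 1 to 6 in each neuron library, and none reached the threshold. There were 4.46, 8.48 and 11.8 reads of miR-25-5p for each read of miR-92a-1-5p in the proliferating libraries, 8.42, 11.6 and 37.3 in the differentiating libraries and 22.8, 21.3 and 52.0 in the neuron libraries. All neuron libraries lay above all libraries of proliferating progenitors. The log2 ratio of miR-25-5p to miR-92a-1-5p was 1.69 higher in neurons than in proliferating progenitors, with p = 0.1, the smallest that the exact permutation test allows, or 0.375 after adjustment. Against miR-92b-5p the log2 ratio of miR-92a-1-5p differed by -1.39 between neurons and proliferating progenitors (exact permutation p = 0.2), and the libraries overlapped.

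Next the members were compared with the other 5p arms of their own clusters, which are cut from the same primary transcripts. This does not set like against like. The members are the arms generally not kept in their family, and every tested partner had higher mean levels in each population. The opposite arms of the members were not analysed, so the ratios compare single arms and not whole hairpins. In the miR-106b-25 cluster neither partner was called at any step, while miR-25-5p was called at the second step and over the whole lineage. miR-93-5p had 2485 ± 153, 2463 ± 273 and 2269 ± 706 CPM in the 3 populations in lineage order, and miR-106b-5p 436 ± 32.1, 427 ± 77.8 and 378 ± 65.8 CPM (SD, n = 3 each). Over the whole lineage the log2 change was -0.13 for miR-93-5p (SE 0.18, edgeR adjusted p = 0.588) and -0.20 for miR-106b-5p (SE 0.18, edgeR adjusted p = 0.349). With total counts the log2 change of miR-93-5p was 0.09 and without neuron replicate 2 it was 0.13, so no direction is given for it.

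For each 1000 reads of miR-106b-5p and miR-93-5p together there were 39.4, 66.4 and 30.8 reads of miR-25-5p in the proliferating libraries, 45.8, 33.7 and 32.0 in the differentiating libraries and 13.0, 18.3 and 11.8 in the neuron libraries. Every neuron library lay below every progenitor library. The exact 95% binomial interval of the share of miR-25-5p in the sum of the 3 arms, which covers counting error only, was 1.38% to 2.29% in the highest neuron library and 2.34% to 3.75% in the lowest progenitor library. The log2 ratio differed by -1.37 between neurons and differentiating progenitors and by -1.61 between neurons and proliferating progenitors, each with p = 0.1, the smallest that the exact permutation test allows, and without each library in turn these differences were -1.56 to -1.22 and -1.85 to -1.30. Between both progenitor populations it differed by -0.24 (exact permutation p = 0.7).

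In the miR-17-92 cluster the tested partners were miR-17-5p, miR-18a-5p and miR-20a-5p. None was called at any step in the fit of all 9 libraries with TMM scaling and no covariate. Over the whole lineage their log2 changes were -0.42, -0.36 and -0.39, with edgeR adjusted p-values of 0.0655, 0.103 and 0.0895, while that of miR-92a-1-5p was -3.73. With the replicate number as a block miR-17-5p was called lower over the whole lineage (log2 change -0.45, edgeR adjusted p = 0.0441). At the second step miR-17-5p, miR-18a-5p and miR-20a-5p were called lower with upper-quartile factors, with adjusted p-values of 0.0424, 0.0228 and 0.0424. Neuron replicates 2 and 3 decided these values. Without replicate 3 all 3 were called lower at the second step (log2 changes -0.63, -0.53 and -0.64, edgeR adjusted p = 0.00825, 0.039 and 0.0106). Over the whole lineage miR-17-5p (-0.65, edgeR adjusted p = 0.00412) and miR-20a-5p (-0.63, edgeR adjusted p = 0.00739) were then called as well. Without replicate 2 the second-step changes were -0.13, -0.25 and -0.12, and none was called. miR-17-5p, miR-20a-5p, miR-93-5p and miR-106b-5p belong to one seed family with further near-identical copies, and how reads that match several of them were assigned is not given in the sources used here. The 5p arms of miR-19a and miR-19b-1 had 0 to 2 reads in any library and were not tested.

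For each 1000 reads of the partners, mostly miR-20a-5p and miR-17-5p, there were 3.47, 3.07 and 1.12 reads of miR-92a-1-5p in the proliferating libraries, 2.06, 1.23 and 0.326 in the differentiating libraries and 0.276, 0.430 and 0.107 in the neuron libraries. Neuron and proliferating libraries did not overlap, whereas neuron and differentiating libraries did. The log2 ratio differed by -3.04 between neurons and proliferating progenitors (exact permutation p = 0.1) and by -1.81 between neurons and differentiating progenitors (exact permutation p = 0.2). In both clusters the member comes from the hairpin nearest to the 3′ end. It starts 414 bases after the first hairpin in the miR-106b-25 cluster and 756 bases after it in the miR-17-92 cluster. Both members are also arms generally not kept in their family, and a part of position was not tested.

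**Figure D3:**
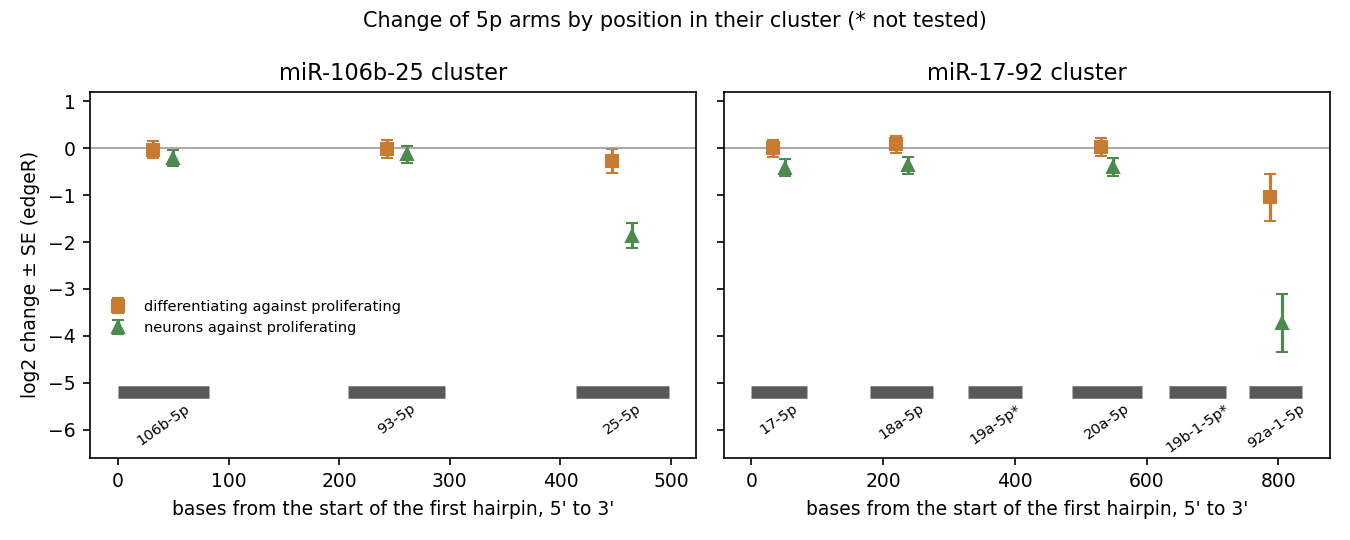
Log2 changes with SE bars (vertical axis) of the tested 5p arms of both clusters at the position of their hairpins (grey bars; horizontal axis in bases from the start of the first hairpin), for differentiating against proliferating progenitors (squares) and neurons against proliferating progenitors (triangles); an asterisk marks arms not tested. The partners lie between -0.42 and 0.08, and the last arm of each cluster lies at -1.86 and -3.73 in neurons. Points are single arms, and the opposite arms of the members were not analysed.

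**Figure D4:**
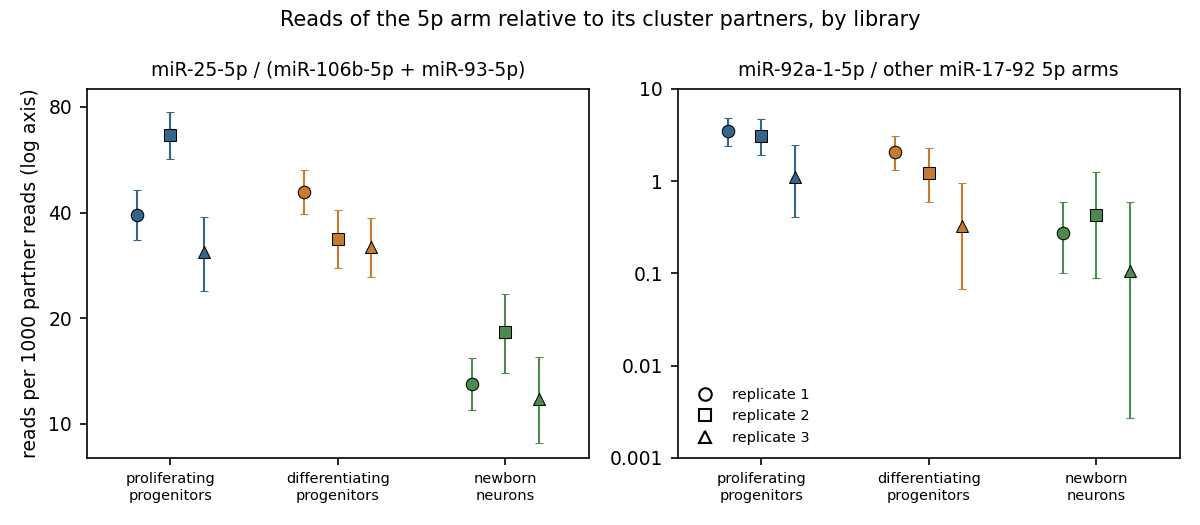
Reads of miR-25-5p (left) and miR-92a-1-5p (right) per 1000 reads of the other 5p arms of the same cluster (log axes) in each library, with exact 95% binomial intervals for counting error only; symbols are replicate numbers. On the left the neuron libraries (11.8 to 18.3) lie below all progenitor libraries (30.8 to 66.4), and on the right differentiating replicate 3 (0.326) lies within the neuron range.

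Of the rest of the family, 10 arms were looked for by name, 4 were in the table and 2 were tested. miR-32-5p, the guide arm with the family seed, had 149 ± 14.0, 92.2 ± 19.4 and 57.5 ± 13.6 CPM in the 3 populations (SD, n = 3 each). Neuron libraries lay below all proliferating libraries and overlapped those of differentiating progenitors. It fell by 1.36 over the whole lineage (log2, SE 0.22, edgeR adjusted p = 5.01e-05), a call that held with each of 4 other scalings and without each library. Its values at the single steps were -0.69 (edgeR adjusted p = 0.0389) and -0.68 (edgeR adjusted p = 0.0167), and both calls depended on the scaling. The first was lost with each of 4 other scalings, with adjusted p-values of 0.0534 to 0.124, and the second with total counts (0.057) and total counts without miR-9-5p (0.102). The call at the first step was also lost without proliferating replicate 1 or 3, differentiating replicate 2 or 3, or neuron replicate 1, with adjusted p-values of 0.0803 to 0.134, and that at the second step without differentiating replicate 1 or 2 or neuron replicate 1 or 3, with 0.0525 to 0.168.

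miR-363-5p, the 5p arm of the last hairpin of the miR-106a-363 cluster on the X chromosome, was not called at any step. Its means were 16.2 ± 3.73, 12.2 ± 4.16 and 11.1 ± 3.01 CPM (SD, n = 3 each), and its log2 change over the whole lineage was -0.50 (SE 0.33, edgeR adjusted p = 0.209). miR-92a-2-5p, the 5p arm of the second miR-92a hairpin in that cluster, had 1 read in each of 2 progenitor libraries and none elsewhere, and miR-367-5p had none in any library. A count of 0 allows up to 3 reads, or 0.778 to 3.65 CPM before TMM scaling depending on the library. The other tested arms of that cluster, miR-106a-5p, miR-18b-5p and miR-20b-5p, had log2 changes of -0.74, -0.67 and -0.71 over the whole lineage, with edgeR adjusted p-values of 0.0113, 0.0464 and 0.0425. With total counts none of the 3 was called (0.0673, 0.21 and 0.239), and miR-106a-5p alone kept its call without each library in turn. The call of miR-18b-5p was lost without proliferating replicate 1 or 3, differentiating replicate 1 or 3 or neuron replicate 1 or 2, with adjusted p-values up to 0.177. That of miR-20b-5p was lost without any proliferating library, differentiating replicate 3 or neuron replicate 1 or 2, with adjusted p-values up to 0.176.

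The miRNAs most like the members were taken by the distance between their centred log2 means over the 3 populations, among miRNAs with a mean of at least 10 CPM. For miR-92b-5p these were miR-574-5p, miR-378d and miR-378c, at distances of 0.08, 0.09 and 0.20, where the median of 166 candidates was 1.52. For miR-25-5p they were miR-378d (0.17), miR-92b-5p (0.25) and miR-574-5p (0.31), with a median of 1.40. The 2 better measured members were thus close to each other, with 1 miRNA nearer to miR-25-5p and 4 nearer to miR-92b-5p. miR-92a-1-5p was nearest to miR-450b-5p (0.42), a miRNA of an X-linked cluster, whose means of 130, 44.8 and 8.79 CPM fell at both steps, and lay 1.29 from miR-92b-5p and 1.43 from miR-25-5p.

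The labels of the populations were set beside marker miRNAs. The 8 neuronal markers in the table, of 9 looked for, summed to between 4737 and 5868 CPM in proliferating libraries, between 6992 and 8089 CPM in differentiating libraries and between 23870 and 28880 CPM in neuron libraries. Most of each sum was miR-7a-5p, with means of 3262, 5471 and 22043 CPM in lineage order. Over the whole lineage 6 of the markers were called higher and 1 lower. The marker called lower was miR-129-5p, with means of 689, 342 and 213 CPM. The summed markers of other cell types were highest in proliferating progenitors. Among single markers the haematopoietic miR-146a-5p was an exception, with 7.1 ± 4.53, 14.8 ± 4.90 and 1.12 ± 0.387 CPM in lineage order (SD, n = 3 each). The 2 erythroid markers in the table summed to 260.5 to 353.7 CPM there, 0.881 to 2.86 CPM in differentiating progenitors and 0 to 2.31 CPM in neurons, where miR-144-5p was at 0. The 5 mural markers summed to 437.4 to 578.6, 39.99 to 43.43 and 17.7 to 36.3 CPM, the 5 haematopoietic markers to 47.1 to 60.3, 20.7 to 37.0 and 8.44 to 9.01 CPM, and the endothelial marker miR-126a-5p to 18.4 to 26.2, 11.4 to 12.3 and 5.28 to 12.3 CPM. Most of the mural sum was miR-143-3p, the only mural marker tested, with means of 518, 38.4 and 26.2 CPM. The haematopoietic miR-142a-5p was at 0 in every neuron library and had 34, 20 and 14 reads in the proliferating libraries. miR-223-5p and miR-150-5p were also at 0 in neurons, but had at most 1 read in any library. The mural miR-143-5p had 2 reads in proliferating replicate 1 and none elsewhere, and miR-214-5p had none in any library. Zeros of markers this rare do not show a fall. The erythroid and mural sums were lower from the first step, at which miR-92b-5p was called lower (-0.60) and miR-92a-1-5p had a log2 change of -1.05, and the haematopoietic sum was lower at both steps. The part of these cells in the changes of the members was not tested.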

How the data were processed

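The authors deposited whole-number read counts per miRNA row and library, not normalised, as the values show. Per the submitters' processing notes, bcl2fastq 1.8.2, DESeq2 and the build mm10 were used; aligner, counter and miRNA database release are not given in the sources used here. The table had 1433 rows, of which 222 without a database accession were left out. In 1 row the identifier was split over several fields, and the last 9 fields were read as the 9 libraries. One row per mature name, the largest, was kept, and names with at least 50 reads that differed by at most 2% were merged, leaving 1052 miRNAs, 560 with a read. Counts were fitted with edgeR 4.0.16 (R 4.3.3): filterByExpr, TMM, glmQLFit and glmQLFTest on all 9 libraries without covariate; the filter kept 188 miRNAs. The procedure was tested on simulated data. The SE of a change is its size divided by the square root of F. Ratios were tested with exact permutation tests (scipy 1.17.1). Structures were predicted with RNAfold 2.7.2, and DESeq2 1.42.0 was an alternative. The members, the lists of family, cluster and marker miRNAs and the rule for named miRNAs (members, listed miRNAs by name, and the 3 most alike profiles for each member) were chosen with earlier results of these data known. The mature names matched RefSeq sequences (GRCm38.p6, the assembly of mm10) for 892 of 1052 miRNAs. The depth behind each value is the library total of mature miRNA reads, from 821155 to 3856484; the full sequencing depth is unknown.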

Additional observations from a re-analysis of the deposited data

How the results depend on the processing

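The calls of miR-25-5p and miR-92b-5p at the second step and over the whole lineage kept their direction and side of the threshold in all 20 alternatives each. For miR-92a-1-5p, which passed the filter only through its progenitor libraries, nothing is read from how often its call held. The first step was less stable. With single libraries left out, log2 changes ran from -0.54 to 0.03 for miR-25-5p, -1.89 to -0.58 for miR-92a-1-5p and -0.81 to -0.43 for miR-92b-5p. For miR-92b-5p the call was also lost with total counts (-0.54), upper-quartile factors (-0.39), only the 2 populations compared (-0.58), every row with an accession (-0.50) and the predicted rows included (-0.65); the cause was not tested. At the second step miR-92a-1-5p ran from -3.10 to -1.80 without single libraries. The 30 miRNAs called at the first step became 18 to 37 without single libraries, 68 with every row with an accession, where repeated reads enter several times, and 19 with the predicted rows included. With other scalings the log2 changes of single miRNAs shifted, and the median of these shifts ran from -0.182 to 0.199 over scalings and comparisons. Differences of log2 ratios without single libraries ran from -0.44 to 0.15 for miR-25-5p to miR-92b-5p at the second step, from -1.20 to 0.37 for miR-92a-1-5p to miR-92b-5p at the first, and from -0.48 to 0.07 for miR-25-5p to its cluster partners at the first; the other 12 ratio results kept their sign in every alternative.

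The titles number the libraries of each population, but the numbers were not shown to pair them. Deviations of same-numbered libraries from their population means correlated between -0.068 and 0.254 over the tested miRNAs. The negative values were all between proliferating progenitors and neurons. In 10 of 18 cases a library correlated most with the library of its own number, 1 of the 3 of another population. With the replicate number as a block, 33, 88 and 108 miRNAs were called in place of 30, 87 and 106, miR-92a-1-5p was called at the first step (log2 change -1.01, edgeR adjusted p = 0.037), and miR-17-5p over the whole lineage (-0.45, edgeR adjusted p = 0.0441). The depth limits miR-92a-1-5p most, since its neuron libraries held 6, 3 and 1 reads.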

Other observations

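Base composition was set beside the changes, because 2 of the members are rich in GC. Of the other tested miRNAs with a RefSeq sequence, 23 had a GC content of at least 59.1%, that of miR-25-5p. Their median log2 change over the whole lineage was 0.16, with 4 called lower and 6 called higher in neurons. Over all 163 with a sequence the median was -0.07, with 45 called lower and 46 called higher. Across the 163 miRNAs, which share the 9 libraries and are not independent, the Spearman correlation of GC content with the log2 change over the whole lineage was 0.14. The 7 other tested miRNAs that begin with AGG had log2 changes from -5.91 to 1.96 over the whole lineage, with 2 called lower and 2 called higher.

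The library numbered 3 had the lowest level of miR-92a-1-5p in each of the 3 populations: 7.85 CPM among proliferating, 2.14 among differentiating and 0.768 among neuron libraries. miR-92b-5p showed the opposite there, with 391, 293 and 83.8 CPM in the same libraries, each the highest of its population. Both patterns were noticed after the values were seen and were not tested, and the labels do not tie libraries of the same number to each other.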
